A study of Homo sapiens with 8 samples.

Results

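The genes described here belong to hyaluronan biology and were measured by RNA-seq in LK2 cells that overexpress DNp63. They are the synthase genes HAS1, HAS2 and HAS3 and the receptor genes CD44 and HMMR. These are 5 of the 26760 genes in the count table, picked by symbol, and 4 of them passed the filter on low counts that left 12303 genes to test. HAS3 was picked with its result known, because it is a reported target of p63 whose level fell in DNp63 cells of this series, so the DNp63 effects on HAS3 are given as a description with no test. LK2 is a line from a human lung squamous carcinoma, and RNA was sequenced from 8 libraries in 4 groups of 2. For constitutive overexpression, cells carried the lentiviral vector pLEX_306 or pLEX_307 with DNp63, the p63 form that lacks the N-terminal activation domain, and were compared with cells carrying the same vectors with GFP. In the inducible system, all cells carried pLIX_403 with DNp63, and cells given doxycycline at 2 µg per ml for 6 days (induced) were compared with cells kept without the drug for the same time (uninduced). With no cells given the drug but lacking the DNp63 insert, effects of doxycycline and of DNp63 cannot be told apart there. The 2 constitutive DNp63 libraries, and likewise the 2 GFP libraries, differ in vector number. Nothing in the labels says whether the 2 libraries of a group came from separate infections or cultures, so p-values measure the spread between these libraries, which may be technical.

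Hyaluronan is a long, unsulphated sugar chain of the extracellular matrix, spun out through the plasma membrane by the hyaluronan synthases from UDP-glucuronic acid and UDP-N-acetylglucosamine. Cells bind it through surface receptors, above all CD44, and break it down with hyaluronidases. Keratinocytes and squamous carcinomas are rich in hyaluronan and CD44, and in head and neck squamous carcinoma cells DNp63 has been reported to activate HAS3 and CD44.

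The levels behind these comparisons come from library totals of 2758158 to 10372248 counts. TP63, the overexpressed gene, was at 1850.1 and 3816 CPM (counts scaled to effective library size) with constitutive DNp63, at 0.739 and 1.91 CPM with GFP, at 412 and 422 CPM in induced cells and at 12.7 and 14.8 CPM in uninduced cells. The squamous label was only partly borne out by the basal keratins. KRT14 had no count in any library, and KRT5 had 1392 and 97 counts with constitutive DNp63, 1 and 3 with GFP, 4 and 2 induced and 1 and 0 uninduced. The summed level of 8 squamous markers was 776 to 1210 CPM with constitutive DNp63 and 357 to 584 CPM with GFP. It was 366 to 438 CPM induced and 579 to 617 CPM uninduced. Much of it in the controls came from SOX2, a transcription factor of squamous lung tumours (278 to 517 CPM with GFP, 537 to 575 CPM uninduced). SOX2 was lower with DNp63, at 68.3 to 96.4 CPM constitutive and 278 to 337 CPM induced. The other markers with counts had higher group means with DNp63 in both systems. KRT6A, for example, averaged 476 CPM with constitutive DNp63 against 4.07 CPM with GFP, and 25.1 CPM induced against 4.59 CPM uninduced. At an adjusted p below 0.05 by edgeR, 6 of 7 tested markers rose and 1 fell with constitutive DNp63. Over all genes, 4.17% rose and 3.99% fell in that comparison. On induction 2 markers rose (KRT6A and TRIM29), 0 fell and 5 did not pass, where 0.236% of all genes rose and 0.0488% fell. Of 6 fibroblast markers, COL3A1 and DCN were at 0 in every library and the summed level was at most 30.8 CPM. Of 5 immune and endothelial markers, CD3E, PECAM1 and CDH5 were at 0 in every library, and the summed level was at most 3.30 CPM.

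Reference promoter sequence was available for HAS1, HAS3, CD44 and HMMR in the RefSeq table of build GRCh38.p14, and a core of the p63 binding site was looked for in each. The core searched was CATG, 6 unspecified bases, C, 2 unspecified bases and G, or the same read on the other strand, over 250 bases before and 50 bases after the annotated start. It occurred in 9.70% of 35116 promoters in the table. HAS3, the gene that fell, had no match, nor had CD44 or HMMR, and HAS1, the silent synthase gene, had 1. The table gives 1 start per gene, and the GENCODE v29 genes on GRCh38 begin upstream of the searched windows for HAS3 (chr16, 69105564), CD44 (chr11, 35138870) and HMMR (chr5, 163460203), so other starts of these genes were not searched. The 250 bases before the start are shown for these contrasting synthase genes, 5′ to 3′ on the gene's strand, with capitals marking the match. The HAS3 stretch is chr16:69107290-69107539 on the plus strand, and the HAS1 stretch is chr19:51723992-51724241 on the minus strand.
HAS3 promoter: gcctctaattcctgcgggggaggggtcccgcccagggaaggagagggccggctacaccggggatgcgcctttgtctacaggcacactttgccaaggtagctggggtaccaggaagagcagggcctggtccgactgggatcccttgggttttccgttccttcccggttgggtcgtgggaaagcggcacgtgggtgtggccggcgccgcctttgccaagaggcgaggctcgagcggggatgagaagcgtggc
HAS1 promoter: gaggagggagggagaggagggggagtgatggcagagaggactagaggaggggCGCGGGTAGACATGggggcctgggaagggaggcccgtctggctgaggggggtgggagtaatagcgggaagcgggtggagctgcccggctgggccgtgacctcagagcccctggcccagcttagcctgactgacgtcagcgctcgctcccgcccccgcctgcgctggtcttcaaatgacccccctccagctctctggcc
The 300-base HAS3 window had a GC content of 67.0% with 25 CpG pairs, and the HAS1 window 68.3% with 15.

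HAS3 encodes the synthase that is prominent in epidermal keratinocytes. It was at 20.9 and 12.8 CPM with constitutive DNp63 (73 and 66 counts), against 232 and 306.2 CPM with GFP (629 and 1446 counts). Under induction it was at 123 and 132 CPM in induced cells (994 and 672 counts), against 271 and 293 CPM in uninduced cells (1346 and 3009 counts). Every DNp63 library was thus below every control library, and the 2 systems did not overlap among the DNp63 libraries, where both constitutive libraries were lower.

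The HAS3 mean was 16.8 ± 5.70 CPM (SD, n = 2) with constitutive DNp63 and 269.3 ± 52.2 CPM with GFP. It was 127 ± 6.66 CPM induced and 282 ± 15.3 CPM uninduced. The fitted log2 fold change was −4.02 ± 0.27 (SE, n = 2 per group) for constitutive DNp63 over GFP, which leaves 6.16% of the control level. For induced over uninduced cells it was −1.14 ± 0.23, which leaves 45.2%. Averaged over both systems it was −2.58 ± 0.18, the 23rd lowest of 12303 genes tested. These values chose the gene and are given without a test.

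HAS3 was lower within each vector number of the constitutive system. The log2 ratio of HAS3 in DNp63 over GFP cells was −3.46 for the pLEX_306 cells and −4.54 for the pLEX_307 cells. In the inducible system the numbered libraries gave −1.14 for replicate 1 and −1.14 for replicate 2. With each library left out in turn, the fitted value stayed between −4.40 and −3.69 in the constitutive system and between −1.20 and −1.09 in the inducible system.

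**Figure D1:**
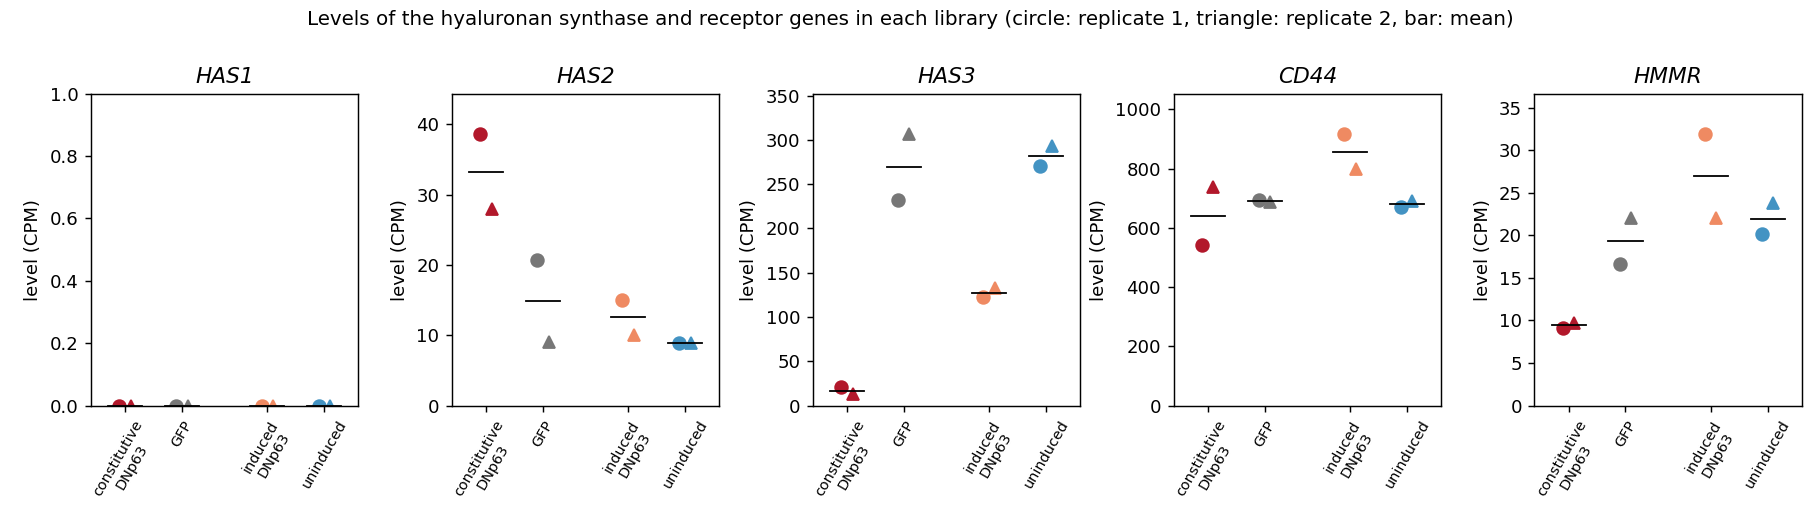
Level of each gene in CPM (linear axes from 0) in the 8 libraries, by group. Points are single libraries and bars group means. HAS3 lies at 12.8 to 20.9 CPM with constitutive DNp63 and at 123 to 132 CPM when induced, below 232 to 306.2 CPM with GFP and 271 to 293 CPM uninduced.

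Side by side, the HAS3 effects were larger in size with constitutive DNp63 than on induction. The induced minus the constitutive log2 fold change was 2.88 ± 0.34, and between 2.55 and 3.26 with each library left out in turn, a description with no test since it is built from the effects by which HAS3 was chosen. TP63 was also lower in induced than in constitutive DNp63 cells, and dose, vector and duration of expression cannot be told apart in this design.

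**Figure D2:**
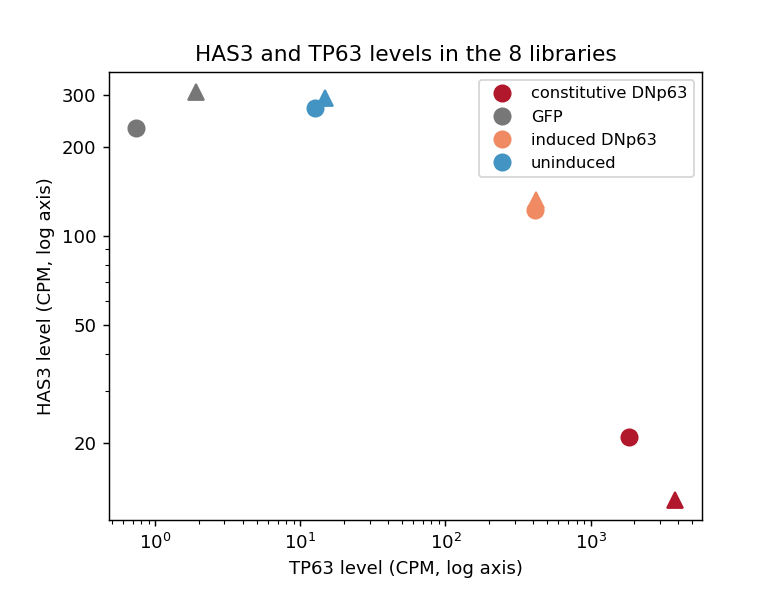
HAS3 level against TP63 level in CPM, both on log axes, 1 point per library (circles replicate 1, triangles replicate 2). HAS3 was at 12.8 CPM in the library with the most TP63 (3816 CPM) and at 271 to 293 CPM in the uninduced libraries, where TP63 was at 12.7 to 14.8 CPM. The GFP libraries had the least TP63 (0.739 and 1.91 CPM), with HAS3 at 232 and 306.2 CPM, on either side of the uninduced libraries.

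HAS3 was also compared between the controls of the systems. The uninduced minus GFP difference was 0.06 ± 0.23 on the log2 scale (adjusted p = 0.962), and the uninduced libraries lay within the range of the GFP libraries. In that comparison 0.00813% of all genes were called, and none of the 4 tested members was, by edgeR, by DESeq2 or at an unadjusted p below 0.05. TP63 stood at 12.7 and 14.8 CPM in these uninduced cells, against 0.739 and 1.91 CPM with GFP, while the HAS3 libraries overlapped. From low to high, the HAS3 group means ran constitutive DNp63, induced, GFP and uninduced, and only GFP and uninduced, as neighbours in that order, overlapped in their libraries.

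Among the other synthase genes, HAS2, the main synthase of fibroblasts and embryonic tissue, was at 38.6 and 27.9 CPM with constitutive DNp63 (135 and 144 counts), against 20.7 and 9.11 CPM with GFP (56 and 43 counts). It was at 15.1 and 10.0 CPM in induced cells (122 and 51 counts), against 8.86 and 8.94 CPM in uninduced cells (44 and 92 counts). The DNp63 libraries lay above their own controls in both systems without overlap, although 1 GFP library exceeded both induced libraries.

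HAS2 did not pass the test. Its log2 fold change was 1.20 ± 0.38 for constitutive DNp63 over GFP (adjusted p = 0.0837), 0.51 ± 0.38 for induced over uninduced (0.968) and 0.85 ± 0.27 averaged (0.105), all by edgeR's quasi-likelihood test. Without GFP replicate 1, where HAS2 was at its control maximum, the constitutive value was 1.86 (adjusted p = 0.0198) and the averaged value 1.18 (0.0197), and without GFP replicate 2 the constitutive value was 0.67 (0.376). By vector, DNp63 over GFP was 0.89 for pLEX_306 and 1.58 for pLEX_307. With the replicate number, which marks the vector in the constitutive system, as a block, HAS2 passed in both the constitutive (adjusted p = 0.0175) and the averaged comparison (0.0251). The difference between the systems was −0.69 ± 0.54 (adjusted p = 0.676).

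The reads of HAS2 may not be cleanly separated from those of HAS2-AS1, a transcript of the opposite strand, where their exons overlap. In GENCODE v29 the 2 genes share 201 bases of exon, and whether reads were counted by strand is not stated in the labels. HAS2-AS1 was at 16.9 and 22.5 CPM with constitutive DNp63 against 9.61 and 11.4 CPM with GFP, and at 14.3 and 10.8 CPM induced against 6.64 and 5.83 CPM uninduced. Its averaged log2 fold change was 0.96 ± 0.22 (adjusted p = 0.0273), a call lost without GFP replicate 2 (0.0597), induced replicates 1 (0.151) or 2 (0.0608), or uninduced replicates 1 (0.114) or 2 (0.173). HAS2-AS1 was named for its overlap, after its values were seen.

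HAS1 had 0 counts in all 8 libraries. A count of 0 allows up to 3 counts per library, which is 0.289 CPM in the deepest library and 1.09 CPM in the shallowest, or 0.0671 CPM over the 44689908 counts of all libraries together (counting error only). Its RNA was not detectable at this depth in any group.

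Per exonic length in GENCODE v29, the order of the synthases differed between groups. Constitutive DNp63 cells held 7.94 CPM per kb of HAS2 and 3.46 CPM per kb of HAS3, against 3.56 of HAS2 and 55.3 of HAS3 with GFP. Induced cells held 2.995 CPM per kb of HAS2 and 26.2 of HAS3, against 2.12 of HAS2 and 57.9 of HAS3 in uninduced cells. HAS2 thus exceeded HAS3 in the constitutive DNp63 group alone of the 4 groups. The exonic lengths used were 4190 bases for HAS2 and 4869 bases for HAS3, and the gene models behind the counts may differ from these.

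CD44, the main cell surface receptor for hyaluronan, was the most abundant of the 5 genes per length, at 105 CPM per kb with constitutive DNp63, 113 with GFP, 140 induced and 111 uninduced. It was at 543 and 738 CPM with constitutive DNp63 (1902 and 3804 counts), against 695 and 686 CPM with GFP (1880 and 3241 counts). In induced cells it was at 916 and 797 CPM (7414 and 4054 counts), against 669 and 691 CPM in uninduced cells (3325 and 7112 counts). The constitutive libraries enclosed the GFP range, whereas both induced libraries lay above both uninduced ones.

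The CD44 log2 fold change was −0.11 ± 0.19 for constitutive DNp63 over GFP (adjusted p = 0.806), 0.33 ± 0.19 for induced over uninduced (0.93) and 0.11 ± 0.14 averaged (0.727). The numbered pairs gave −0.35 for pLEX_306 and 0.10 for pLEX_307. Fitted on the inducible libraries alone, the induced value of 0.34 had an adjusted p of 0.0189. That fit called 803 of all genes, where the main fit called 35. Gene counts sum over the splice forms of CD44, so the standard form and the epithelial variant forms are not told apart.

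HMMR encodes a hyaluronan-binding protein, also called RHAMM, that is found inside the cell as well and sits on the mitotic spindle in dividing cells. It was at 9.14 and 9.70 CPM with constitutive DNp63 (32 and 50 counts), against 16.6 and 22.02 CPM with GFP (45 and 104 counts). It was at 31.9 and 22.03 CPM in induced cells (258 and 112 counts), against 20.1 and 23.8 CPM in uninduced cells (100 and 245 counts). Both constitutive libraries were below all the others, while induced and uninduced libraries overlapped.

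The HMMR log2 fold change was −1.05 ± 0.30 for constitutive DNp63 over GFP (adjusted p = 0.0588), 0.30 ± 0.27 for induced over uninduced (0.983) and −0.37 ± 0.20 averaged (0.355). The constitutive value passed the threshold narrowly without GFP replicate 1 (−1.22, adjusted p = 0.0499) and with the replicate number as a block (−1.04, 0.047). By vector, DNp63 over GFP was −0.84 for pLEX_306 and −1.15 for pLEX_307. The difference between the systems was 1.34 ± 0.40 (unadjusted p = 0.00697 and adjusted p = 0.206, edgeR). In that comparison 0.545% of all genes were called, and HAS2, CD44 and HMMR were not, by edgeR or DESeq2, with HMMR alone at an unadjusted p below 0.05.

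In all, none of HAS2, CD44 and HMMR passed the edgeR test in the averaged comparison, where 5.67% of all genes were called, in the constitutive comparison, where 8.16% were, or in the induced comparison, where 0.284% were. At an unadjusted p below 0.05 there were 1, 2 and 0 of these 3 genes in the averaged, constitutive and induced comparisons, and DESeq2 called 0 in each. With no filter on low counts the numbers called were 1, 2 and 0. HAS3 is not counted here, since its fall chose it.

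**Figure D3:**
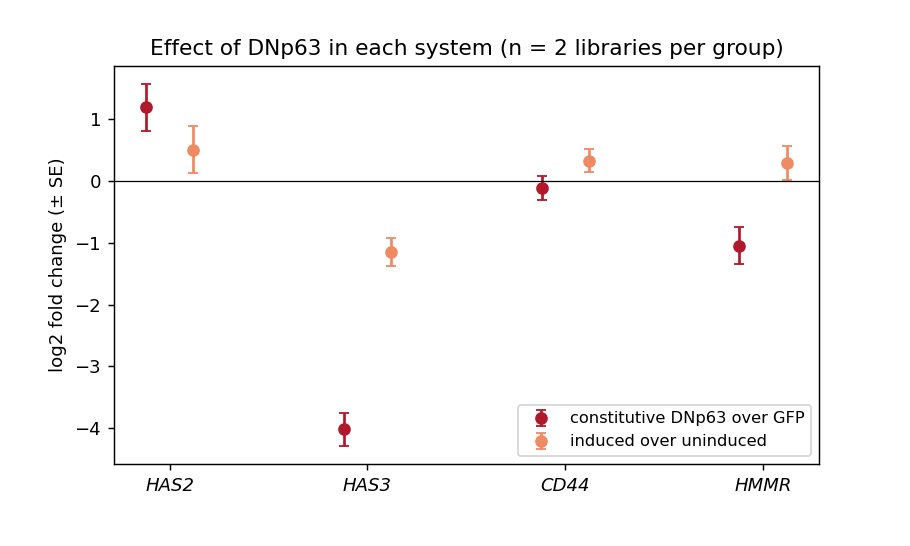
Fitted log2 fold change (± SE, n = 2 libraries per group) of the 4 tested genes for constitutive DNp63 over GFP and for induced over uninduced cells. HAS3 lies at −4.02 and −1.14, HAS2 above 0 in both systems, CD44 near 0 and HMMR at −1.05 and 0.30.

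Mitotic genes were read beside HMMR. Of a list of 19, 18 were tested, and 6 fell with constitutive DNp63 (TOP2A, CCNA2, AURKB, BUB1B, CDC20 and NUF2, named after their values were seen), 0 rose and 12 did not pass, where 3.99% of all genes fell and 4.17% rose, with a list median of −0.97 against 0.01 over all genes. In induced against uninduced cells none was called by edgeR or DESeq2, 2 had an unadjusted p below 0.05, and the median was 0.23. With no filter 1 of them was called in that comparison. A fit of the inducible libraries alone called 5 of them, but it called 803 of all genes, against 35 in the main fit. HMMR's own values were −1.05 and 0.30. The count of 6 was 1 without DNp63 replicate 2 or GFP replicate 2, 2 without any of the 4 inducible libraries, 10 without GFP replicate 1, 12 without DNp63 replicate 1 and 0 when the constitutive libraries were fitted alone. It was 15 with no filter on low counts, where 1791 of all genes were called, and 8 with DESeq2. The main fit called 1004 of all genes, and the constitutive libraries fitted alone 282. Calls over all genes moved as well when single libraries were left out. The summed mitotic level was 868 to 1505 CPM with constitutive DNp63 and 1563 to 2971 CPM with GFP, and 2470 to 2562 CPM induced and 2044 to 2161 CPM uninduced.

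Among the spindle genes closest to HMMR in function, TPX2, which works with HMMR in spindle assembly, stood at −0.58 ± 0.33 on the constitutive log2 scale (adjusted p = 0.335). The spindle kinase gene AURKA was at −0.57 ± 0.35 (0.386, and −1.28 with an adjusted p of 0.0252 without DNp63 replicate 1). BRCA1, a known partner of HMMR at the centrosome, had −0.08 ± 0.31 (0.911), and the proliferation marker MKI67 −1.001 ± 0.43 (0.188). On induction BRCA1 was at 15.9 and 16.3 CPM in induced cells, against 32.0 and 36.7 CPM in uninduced cells. Its induced log2 fold change of −1.09 ± 0.29 (adjusted p = 0.291) lay apart from the list median of 0.23. That value passed with no filter (0.0274) and in a fit of the inducible libraries alone (0.000107), where 803 of all genes were called. MKI67 was at 207 CPM in GFP replicate 1 and 706 CPM in GFP replicate 2, and its value was −1.63 (adjusted p = 0.00321) without GFP replicate 1 and 0.14 (0.822) without GFP replicate 2. The BRCA1 value was 0.30 without DNp63 replicate 2 and 0.10 without GFP replicate 1, neither past the test. Whether the share of dividing cells had a part in the HMMR values was not tested, and in bulk RNA fewer cells of a kind and less RNA per cell cannot be told apart.

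**Figure D4:**
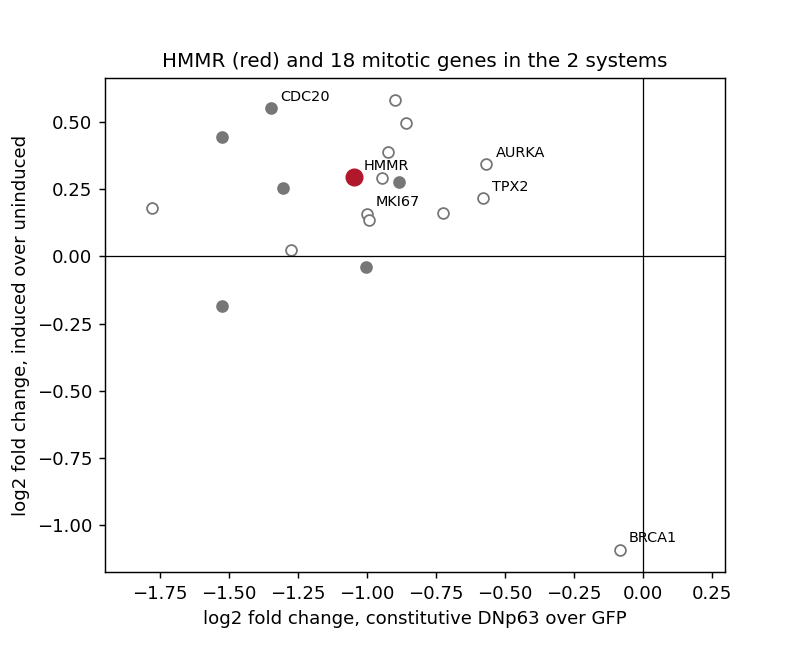
Log2 fold change for constitutive DNp63 over GFP (x axis) and for induced over uninduced (y axis) of HMMR and 18 mitotic genes. Filled grey points passed the test in the constitutive comparison. All points lie left of 0 on the x axis, with HMMR at −1.05 among them and BRCA1 apart at −0.08.

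Beyond these 5 genes, 48 further genes of hyaluronan biology were listed by role, and 30 were tested. In the averaged comparison 1 rose (MMP14), 1 fell (TLR4) and 28 did not pass, where 3.26% of all genes rose and 2.41% fell, with a list median of −0.02 against −0.01 over all genes. The constitutive comparison gave the same counts, with MMP14 and TLR4 again, where 4.17% of all genes rose and 3.99% fell. In the induced comparison, where 0.236% of all genes rose and 0.0488% fell, none was called by edgeR or DESeq2, and 2 had an unadjusted p below 0.05. A fit of the inducible libraries alone called 2 of the 30, but it called 803 of the 12303 genes, against 35 in the main fit. Without DNp63 replicate 2 the number called was 5, in the averaged and in the constitutive comparison, and without GFP replicate 1 it was 4 in the constitutive comparison. With no filter on low counts 4 of the 30 were called in the averaged and in the constitutive comparison, where 1372 and 1791 of all genes were. In the main fit, a share of 2 in 30 is close to the 5.67% and 8.16% called among all genes.

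The precursor enzymes, which supply both sugar nucleotides, had 8 tested members and none was called by edgeR or DESeq2 in the averaged comparison, where none had an unadjusted p below 0.05. GFPT1, the first enzyme of the hexosamine pathway, was highest at 0.63 ± 0.36 on the averaged log2 scale (adjusted p = 0.39), and UAP1, which makes UDP-N-acetylglucosamine, lowest at −0.28 ± 0.19 (0.499). By system, GFPT1 had 1.16 ± 0.51 for constitutive DNp63 over GFP (adjusted p = 0.208, edgeR) and 0.10 ± 0.51 for induced over uninduced (0.995). GFPT1 differed widely between libraries of a group, at 182 and 80.3 CPM with constitutive DNp63 and at 94.2 and 25.0 CPM with GFP. Without GFP replicate 1 its averaged value was 1.24 with an adjusted p of 0.0306, and without GFP replicate 2 it was 0.29 (0.667). With the replicate number as a block it was 0.71 (0.0167).

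The turnover genes had 8 tested of 10 listed, none called by edgeR or DESeq2 in the averaged comparison and 1 at an unadjusted p below 0.05. That was CEMIP, which encodes a protein that binds and depolymerises hyaluronan. CEMIP was at 15.1 and 232 CPM with constitutive DNp63 (53 and 1197 counts), against 602 and 1022 CPM with GFP (1628 and 4824 counts). It was at 688 and 697 CPM in induced cells, against 744 and 747 CPM in uninduced cells. Both constitutive DNp63 libraries were below all others, and as a ratio they differed more from each other than the replicates of any other group did for this gene.

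The CEMIP log2 fold change was −2.70 ± 0.80 for constitutive DNp63 over GFP (adjusted p = 0.0649), −0.11 ± 0.74 for induced over uninduced (0.997) and −1.40 ± 0.54 averaged (0.18). By vector, DNp63 over GFP was −5.28 for pLEX_306 and −2.14 for pLEX_307. Without DNp63 replicate 1 the constitutive value was −1.81 (adjusted p = 0.00339) and the averaged value −0.95 (0.00737), and without DNp63 replicate 2 they were −5.74 (1.03e-05) and −2.92 (1.93e-05). With the replicate number as a block the constitutive value was −3.54 (adjusted p = 0.000872) and the averaged value −1.82 (0.00524). HYAL3, a hyaluronidase family gene, had the highest averaged value of the turnover list, 0.03 ± 0.25 (adjusted p = 0.968). HYAL1 had at most 10 counts in any library.

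Of 6 other receptors listed, 2 had enough counts. TLR4, a toll-like receptor that has been described to respond to hyaluronan fragments, was at 2.29 and 2.72 CPM with constitutive DNp63 (8 and 14 counts), against 11.1 and 15.0 CPM with GFP (30 and 71 counts). It was at 9.76 and 10.2 CPM in induced cells (79 and 52 counts), against 19.1 and 21.3 CPM in uninduced cells (95 and 219 counts). The DNp63 libraries of both systems lay below their own controls without overlap.

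TLR4 fell by 2.38 on the log2 scale with constitutive DNp63 (SE 0.35, adjusted p = 0.00247) and its averaged log2 fold change was −1.70 ± 0.22 (adjusted p = 0.0014). For induced over uninduced cells it was −1.02 ± 0.28 (adjusted p = 0.302). That value passed in a fit of the inducible libraries alone (adjusted p = 0.00331), where 803 of all genes were called. The receptor gene LAYN was at −0.16 ± 0.35 averaged (0.861). The lymphatic receptor LYVE1 and the scavenger receptors STAB1 and STAB2 had too few counts to test.

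Among matrix partners, 3 of 15 listed genes were tested, and none was called in the averaged comparison by edgeR or DESeq2 or at an unadjusted p below 0.05. In the constitutive comparison 2 of the 3 had an unadjusted p below 0.05 by edgeR, and none was called. ITIH4, an inter-alpha-trypsin inhibitor heavy chain family gene, had 1.10 ± 0.56 on the averaged log2 scale (adjusted p = 0.331), and VCAN, the proteoglycan versican, −0.02 ± 0.27 (0.982). The ITIH4 value was 2.27 ± 0.73 for constitutive DNp63 over GFP (adjusted p = 0.0824) and −0.08 ± 0.81 for induced over uninduced (0.998). ITIH4 had only 3 to 22 counts a library. VCAN changed sign without DNp63 replicate 1 (0.26), GFP replicate 2 (0.08), induced replicate 2 (0.09) or uninduced replicate 2 (0.05).

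Of 9 CD44 partners tested, MMP14 rose in the averaged comparison and 8 did not pass, where 3.26% of all genes rose, with a list median of 0.12. MMP14 encodes a membrane-bound matrix metalloproteinase that can cleave CD44 from the cell surface. It was at 209 and 191 CPM with constitutive DNp63 (733 and 987 counts), against 40.3 and 41.3 CPM with GFP (109 and 195 counts). It was at 71.3 and 62.2 CPM in induced cells (577 and 316 counts), against 48.7 and 42.5 CPM in uninduced cells (242 and 437 counts). Both systems separated without overlap, the constitutive one by far more.

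The MMP14 log2 fold change was 2.30 ± 0.20 with constitutive DNp63 (adjusted p = 0.000146), 0.55 ± 0.19 with induction (0.504) and 1.42 ± 0.13 averaged (0.000205). The induced value passed in a fit of the inducible libraries alone (adjusted p = 0.0109), where 803 of all genes were called. The systems differed by −1.74 ± 0.27 (induced minus constitutive, adjusted p = 0.027), a call lost without GFP replicate 2 (0.0561), induced replicates 1 (0.198) or 2 (0.168), or uninduced replicates 1 (0.226) or 2 (0.187). ESRP2, a regulator of epithelial splicing that includes CD44 variant exons, had the lowest averaged value, −0.37 ± 0.13 (adjusted p = 0.155).

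**Figure D5:**
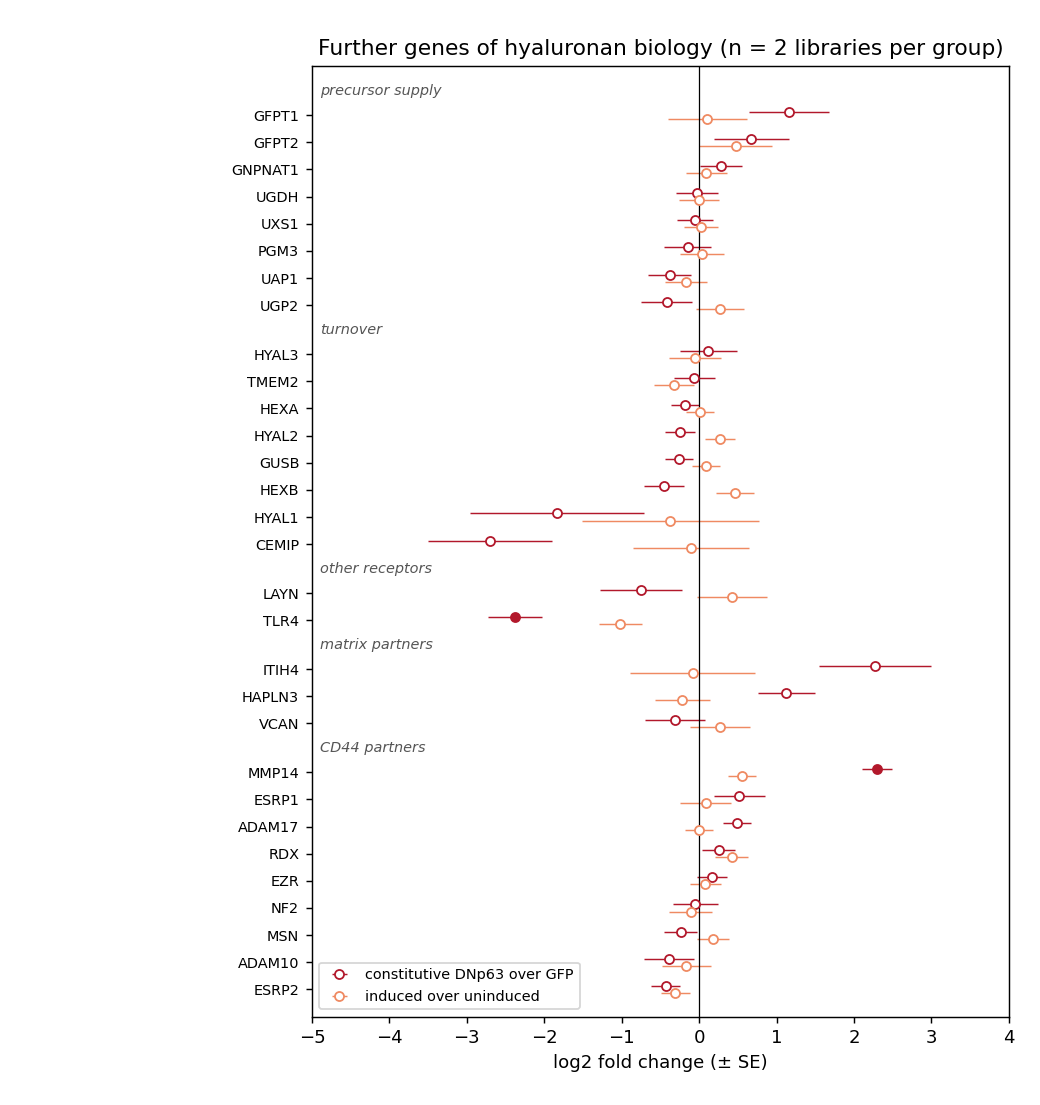
Fitted log2 fold change (± SE, n = 2 libraries per group) of the 30 tested further genes, grouped by role, for constitutive DNp63 over GFP and for induced over uninduced cells. Filled points had an adjusted p below 0.05. Only TLR4 (−2.38) and MMP14 (2.30), both for constitutive DNp63, are filled.

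Among tested genes that averaged 5 CPM or more, the profile nearest to that of HAS3 over the 8 libraries was that of COL8A1, a collagen gene, by the root mean square difference of mean-centred log2 CPM (0.38, where HAS3 itself spanned 4.54). CHN2 (0.45), SHISA2 (0.45), GXYLT2 (0.46) and FZD1, a Wnt receptor gene (0.50), followed. Their constitutive and induced log2 fold changes ran from −4.30 to −3.46 and from −1.74 to −0.79, as follows from matching them to HAS3. In their lowest libraries COL8A1, CHN2, SHISA2 and GXYLT2 were at only 0.58 to 1.36 CPM, and FZD1 at 38.6 CPM. For CD44, whose profile spanned 0.75, the nearest were TSG101, SYT7, GPHN, RABGAP1 and YIPF6 (0.07 to 0.08). For HMMR, which spanned 1.76, they were HIBADH, DBNDD2, PRKCA, FADS1 and ANGEL1 (0.12 to 0.18), and no gene of the mitotic list was among these 5. For HAS2, which spanned 2.08, they were CTAGE5, SLC3A2, NCOA7, RAB6A and CXXC5 (0.17 to 0.22).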

How the data were processed

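RNA was poly(A)-selected, converted to libraries with a directional kit and sequenced as paired 38 bp reads, per the labels' protocols. The deposited file holds raw counts per gene for 8 libraries, in which 8601 of 26760 genes were at 0 throughout. The submitters' processing notes name TopHat2 2.1, HTSeq, SAMtools, DESeq2 and the hg19 build. For the annotation, strand setting and read filters, nothing is stated in the labels or headers, so genes that overlap on opposite strands are uncertain.

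From the counts as deposited, edgeR 4.0.16 (R 4.3.3, limma 3.58.1) fitted 4 group means with TMM scaling after filterByExpr with a minimum count of 10, using the quasi-likelihood test with its legacy estimates, and Benjamini-Hochberg adjustment over 12303 genes at 0.05. The unit printed is CPM on TMM-scaled library sizes. Contrasts were constitutive DNp63 minus GFP, induced minus uninduced, their mean (averaged), their difference (induced minus constitutive) and uninduced minus GFP. The standard error is the absolute log2 fold change divided by the square root of the F statistic. Totals were 3348421 and 4924534 counts with constitutive DNp63, 2758158 and 4819186 with GFP, 8169745 and 5229957 induced, and 5067659 and 10372248 uninduced. Within each group the libraries differed by more than sampling noise, with a chi-square per degree of freedom of 3.88 to 25.3, so none was counted as a duplicate.

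The fit was tested on simulated counts. Members and gene lists were chosen with earlier results of these data known. From each further list, the genes called in the averaged comparison or in either system and the highest and lowest averaged values were named, along with TPX2, AURKA, BRCA1 and MKI67 and the 5 genes most like each member (log2 CPM with a prior count of 2, mean of at least 5 CPM, clone names left out). Lengths and overlaps came from GENCODE v29 on GRCh38, a different build from the counts, and promoters from RefSeq on GRCh38.p14, where 4 of 5 members matched. Alternatives were DESeq2 1.42.0, its size factors in edgeR, no filter, the newer estimates, a replicate block, 1 system alone and each library left out in turn.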

Additional observations from a re-analysis of the deposited data

Results flagged for a closer look

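The effect of DNp63 differed between the inducible and the constitutive system for 2 of the genes looked at, by the interaction term of edgeR's quasi-likelihood model. Those looked at were HAS2, CD44, HMMR, the 30 tested further hyaluronan genes and the 18 tested mitotic genes. In that comparison 0.545% of all genes were called. HAS3 was left out because its DNp63 effects chose it, and TP63 and the squamous markers were not looked at here. For MMP14, a protease gene whose product can shed CD44, the values were 0.55 on induction and 2.30 with constitutive DNp63, a difference of −1.74 ± 0.27 (adjusted p = 0.027), and its level was higher with DNp63 in both systems. For CDC20, a mitotic gene read beside HMMR and named for this difference after its values were seen, they were 0.55 ± 0.21 on induction and −1.35 ± 0.22 with constitutive DNp63, a difference of 1.90 ± 0.30 (adjusted p = 0.0301). CDC20 averaged 268 ± 7.16 CPM in induced and 183 ± 2.75 CPM in uninduced cells, and 83.3 ± 16.0 CPM with constitutive DNp63 and 211 ± 46.6 CPM with GFP (SD, n = 2 each). HMMR itself differed by 1.34 ± 0.40, with an adjusted p of 0.206 (edgeR). The MMP14 call was lost under 5 of 13 alternatives, each of them leaving out 1 library. CDC20 did not pass without GFP replicate 2 (adjusted p = 0.0543), induced replicate 1 (0.246) or 2 (0.168), or uninduced replicate 1 (0.226) or 2 (0.216). TP63 was at 412 to 422 CPM in induced cells and 1850 to 3816 CPM in constitutive DNp63 cells, and its part in these differences was not tested.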

How the results depend on the processing

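The numbers of genes called were 697 averaged, 1004 constitutive, 35 induced, 67 for the difference between the systems and 1 for the controls. With DESeq2 they were 110 induced, 265 for the difference and 57 for the controls, and with no filter on low counts 1372, 1791, 242, 558 and 245 in the order above. The replicate number marks the vector in the constitutive system and only names libraries in the inducible one, and deviations of same-numbered libraries correlated at 0.22 and −0.033 there. With the replicate block the counts were 87 induced and 270 for the difference, and HAS2, HMMR, CEMIP and GFPT1 passed as given beside their values. Each system fitted alone gave 282 constitutive and 803 induced. Leaving out each library in turn gave 224 to 1112 averaged, 451 to 1398 constitutive, 2 to 100 induced, 0 to 449 for the difference and 0 to 45 for the controls. The cause of these shifts was not tested.

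HAS3 kept its direction in every DNp63 contrast under all alternatives run. TLR4 and MMP14 kept their averaged and constitutive calls under all of them, with adjusted p at most 0.0464. With no filter, HAS2 (constitutive adjusted p = 0.00835) and HMMR (0.02) passed. The log2 difference of CD44 between the controls was 0.0018 with no filter, against −0.021 in the main fit, and was called in neither. In the same run 1 turnover gene and 1 precursor gene also passed, in the averaged and in the constitutive comparison. Values that changed sign when 1 library was left out were all uncalled. These were CD44 averaged (−0.0064 to 0.22), constitutive (−0.35 to 0.095) and between controls (−0.045 to 0.0020), HAS3 between controls (−0.12 to 0.28), HMMR induced (−0.00061 to 0.53), the HAS2-AS1 difference (−0.10 to 0.36), HYAL3 averaged (−0.17 to 0.22), VCAN averaged (−0.49 to 0.26), TPX2 averaged (−0.43 to 0.11), AURKA averaged (−0.46 to 0.13), BRCA1 constitutive (−0.55 to 0.30), and MKI67 averaged (−0.73 to 0.15), constitutive (−1.63 to 0.14) and induced (−0.016 to 0.32). HAS2 and HMMR had 32 to 258 counts a library. The 5 genes most like HAS3, CD44 and HMMR stayed in those lists under both alternatives.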
